A study of Vitis riparia with 12 samples.

Results

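The 151 genes described here had higher transcript levels in water deficit (WD) than in well-watered control (C) vines of the riverbank grape, Vitis riparia, in both the root and the shoot. They were chosen on these libraries, from scaled counts (CPM, the reads of a gene for each 1000000 reads on all genes of its library). A gene was taken where its mean CPM in C was 1 or more in both organs and where, in each organ, each of the 3 WD libraries lay above each of the 3 C libraries and the mean of WD was at least 2 times the mean of C. Of 29966 gene models counted, 16464 had that C level in both organs. Of these, 339 met the WD condition in root (2.06%), 1066 met it in shoot (6.47%) and 151 met it in both (0.917%), so the genes are 44.5% of the root set and 14.2% of the shoot set. Because the WD and C values chose the genes, their differences between WD and C are given as a description. Counts of members called between WD and C stand beside the share over all genes and support nothing, and only root and shoot are compared by test.

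Potted, spur-pruned V. riparia vines, all repotted and grown in a greenhouse, received either no water for 14 d (WD) or 2 L of tap water each day (C). Root tips (WD root, C root) and shoot tips of 4 nodes (WD shoot, C shoot) gave 3 RNA-seq libraries each, 12 in all, and each replicate was a group of 3 vines. The labels do not tie the root and shoot libraries of 1 number to the same vines. Root RNA came from a column kit and shoot RNA from another protocol, so organ and extraction cannot be told apart in any comparison of root with shoot. Reads were counted on gene models of another species, V. vinifera, and in a bulk sample more cells of a type and more RNA per cell cannot be told apart.

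The libraries held 14376065 to 22800079 reads on genes in root and 17429395 to 27769527 in shoot, and 3 of the 151 members had under 10 reads in any library, and the lowest count was 4. Marker genes were found by their descriptions, which were read only for genes the study had listed as changed in these libraries. A list of 27 such photosynthesis genes summed to 5982 to 14384 CPM in the shoot libraries and to 81.2 to 348 CPM in the root libraries, where 2 to 7 of the 27 were at 0; 1 of the 27, a plastocyanin domain gene, is a member. The sums were 137, 178 and 348 CPM in WD root 1, 2 and 3 and 113, 120 and 81.2 CPM in C root 1, 2 and 3. They were thus higher in all WD than all C root libraries, and their part in the members' root values was not tested. The list holds only genes listed as changed in these libraries, the WD shoot list being read from its end highest in WD. Nothing is therefore read from the order of the WD and C sums. A list of 12 genes meant to mark root summed to 260 to 474 CPM in root and 443 to 596 CPM in shoot, so it did not separate the organs and the root label has no positive marker here.

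Abscisic acid (ABA) is the hormone through which land plants respond to drying soil. In the core pathway, worked out in Arabidopsis, clade A protein phosphatases of type 2C (PP2C) hold a family of protein kinases inactive; ABA bound to its receptor takes the phosphatases out of action, and the freed kinases phosphorylate bZIP transcription factors that bind ABA-responsive elements. The genes of the phosphatases are themselves known targets of these factors, which makes a feedback on the pathway. Downstream of it lie other transcription factors, enzymes that make soluble sugars such as raffinose, and proteins that protect membranes and other proteins as cells dry. Gene descriptions were read from the study's lists of genes changed in WD root and in WD shoot, the shoot list only in its leading part, which is ordered from the largest higher value in WD downward. A gene could so carry a description only if it had been listed as changed in these libraries, and the other genes of a pathway are not counted here. Of the 151 members, 149 had an entry, and 113 had a named function.

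Grouped here under ABA signalling were 6 members, 4 phosphatases of type 2C and 2 bZIP factors. ABI1 and PP2CA are named for known clade A phosphatases, whereas 1 of the others is described only as a protein phosphatase 2C and 1 as of the DBP type, and no source used here places these in clade A. The mean of WD was 2.15 to 19.7 times that of C in root (median 3.57) and 2.42 to 13.3 times in shoot (median 3.54). Both upper ends belong to the gene described only as a protein phosphatase 2C, whose entry names no ABA pathway. The study states that real-time PCR did not detect the significant rise of ABI1 and PP2CA that its RNA-seq gave in both organs. The PCR fold changes of WD over C that it charted were nonetheless above 1 for each of these genes in each organ. The t-test described in its methods compared root with shoot, not WD with C. The study also reports that the fold changes of its candidate genes by PCR and by RNA-seq were strongly correlated. The study had designed PCR primers for this pair of phosphatases. They are printed here, 5′ to 3′, because they are the only sequences of members that the sources used here hold and they fix which transcripts these names mean.
ABI1 forward: atggtggctctcaggtggctaaat
ABI1 reverse: tcataaccacattgtcggccctct
PP2CA forward: tggcgatgaagtgcaaagatcgga
PP2CA reverse: agaagcttcgctccatcacctgtt

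ABI1 (VIT_11s0016g03180; chromosome 11, bases 2548103 to 2561412, PN40024 12X V1) encodes a clade A phosphatase that keeps the ABA pathway off. Its level was 42.4, 94.0 and 123 CPM in WD root 1, 2 and 3 against 12.8, 20.7 and 13.2 CPM in C root. Shoot levels were 266, 377 and 369.9 CPM in WD 1, 2 and 3 against 104, 117 and 95.6 CPM in C. The groups were well apart in both organs, the lowest WD library being 2.05 times the highest C library in root and 2.27 times in shoot. The mean of WD was 5.56 times that of C in root (log2 fold change 2.42, SE 0.40) and 3.20 times in shoot (1.77, SE 0.20), where these and all later log2 fold changes are edgeR estimates. PP2CA (VIT_13s0019g02200; chromosome 13, bases 3477305 to 3479695), a phosphatase of the same clade, read 73.0, 107 and 108 CPM in the 3 WD root libraries and 42.5, 54.0 and 37.9 CPM in C root. Its shoot values were 185, 327 and 242 CPM in WD and 119, 113 and 80.1 CPM in C. With 2.15 times in root and 2.42 times in shoot it lay near the lower limit of the rule and had the smallest root ratio of the 6, but its replicates were close, with an SE of 0.20 on the root log2 fold change of 1.06.

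The phosphatase described only as a protein phosphatase 2C (VIT_16s0050g02680; chromosome 16, bases 19697405 to 19699942) had the largest root ratio of all 151 members. It was at 8.0, 29.5 and 42.9 CPM in WD root and 1.06, 2.2 and 0.818 CPM in C root, 19.7 times (log2 fold change 4.23, SE 0.69). In shoot it was at 50.7, 113 and 68.0 CPM in WD and 6.68, 7.67 and 3.01 CPM in C, 13.3 times (3.82, SE 0.46). WD root 1 was far below the other WD root libraries for this gene and still several times any C root library, though near the higher C shoot libraries. The phosphatase annotated DBP (VIT_06s0004g05460) stood at 42.2, 96.8 and 147 CPM in WD root and 22.1, 25.2 and 13.2 CPM in C root. Its shoot levels were 378, 693 and 524 CPM in WD and 143, 119 and 58.4 CPM in C. It gave 4.73 times in root and 4.97 times in shoot, a nearly equal ratio in the organs.

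The bZIP factor ABF2 (VIT_18s0001g10450), which in Arabidopsis binds ABA-responsive elements, had 52.5, 84.7 and 142 CPM in WD root and 37.7, 48.1 and 29.9 CPM in C root. In shoot it had 152, 255 and 374 CPM in WD and 72.7, 78.0 and 68.5 CPM in C. WD root 1 was only just above the highest C root library (1.09 times), whereas in shoot the groups were 1.95 times apart, and the ratio of means was 2.41 in root and 3.56 in shoot. ABI5 (VIT_08s0007g03420), a bZIP factor known in Arabidopsis for ABA responses of seeds and seedlings, was a low transcript with 5.43, 10.1 and 6.14 CPM in WD root and 2.60, 3.47 and 3.02 CPM in C root. It had 5.8, 4.57 and 5.85 CPM in WD shoot and 1.03, 2.45 and 1.13 CPM in C shoot, giving 2.38 times in root and 3.52 times in shoot.

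**Figure D1:**
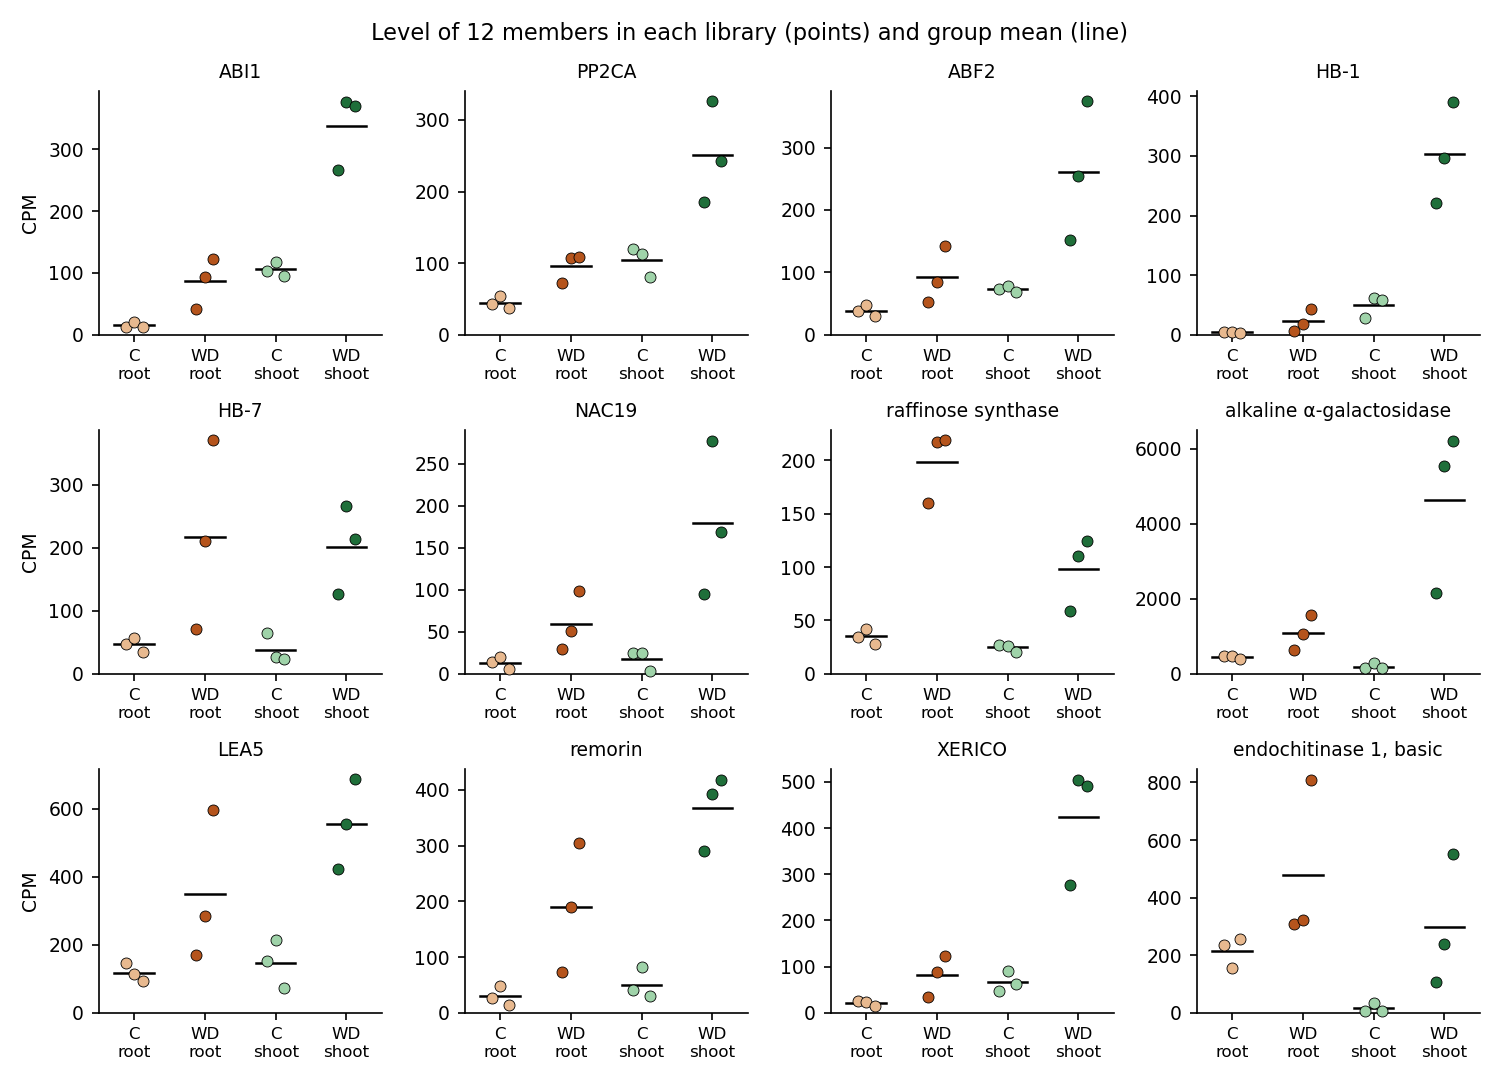
Level of 12 members in CPM (vertical axes, from 0) in each of the 12 libraries (points) with the mean of each group of 3 (lines), in C root, WD root, C shoot and WD shoot. ABI1 was at 12.8 to 20.7 CPM in C root and 42.4 to 123 CPM in WD root, and the alkaline α-galactosidase reached 6205 CPM in WD shoot from 142 to 290 CPM in C shoot.

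Of the other members, 16 were grouped here as transcription factors, a group that leaves out the sigma factor gene SigE. Their median ratio of WD to C was 2.86 in root (2.05 to 5.76) and 5.85 in shoot (2.19 to 10.2). The homeodomain leucine zipper gene HB-1 (VIT_01s0026g01550; chromosome 1, bases 10605157 to 10607755) was at 5.77, 18.4 and 44.0 CPM in WD root and 4.13, 5.25 and 2.45 CPM in C root. In shoot it reached 220.3, 297 and 390.3 CPM in WD and 28.1, 60.9 and 58.5 CPM in C. The root groups nearly touched, WD root 1 being 1.10 times C root 2, whereas the shoot groups were 3.62 times apart, although the ratios of means were alike at 5.76 and 6.16. HB-7 (VIT_15s0048g02870; chromosome 15, bases 16989776 to 16991236), of the family whose Arabidopsis member responds to drought and ABA, had 71.2, 212 and 371 CPM in WD root and 47.6, 57.1 and 35.0 CPM in C root. It had 126, 267 and 213 CPM in WD shoot and 64.2, 27.0 and 24.1 CPM in C shoot. The groups spread widely in WD root, and the ratios were 4.68 in root and 5.26 in shoot.

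The 3 NAC members had larger ratios in shoot than in root. NAC domain containing protein 19 (VIT_19s0014g03290), whose Arabidopsis counterpart is a stress-responsive factor, had 29.0, 50.8 and 98.2 CPM in WD root and 14.5, 19.4 and 6.17 CPM in C root. It had 95.0, 277 and 168 CPM in WD shoot and 24.7, 25.0 and 3.22 CPM in C shoot, where C shoot 3 was far under the other C shoot libraries. Its mean was 4.44 times C in root and 10.2 times in shoot. The NAC100 gene on chromosome 14 (VIT_14s0108g01070) went from 17.7, 17.2 and 6.73 CPM in C root to 29.9, 22.7 and 36.0 CPM in WD root. In shoot it went from 0.984, 4.36 and 1.34 CPM in C to 9.77, 22.7 and 34.1 CPM in WD. Its ratio was 2.12 in root and 9.96 in shoot, with C shoot the lowest group and the WD groups of both organs at a like level. The second NAC100 gene, on chromosome 17 (VIT_17s0000g06400), gave 2.05 in root and 5.54 in shoot.

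ERF011 (VIT_18s0001g10150), a factor of the ethylene response family, was at 6.19, 14.1 and 28.9 CPM in WD root and 3.5, 5.81 and 1.76 CPM in C root. In shoot it was at 81.7, 88.8 and 128 CPM in WD and 13, 12.7 and 7.70 CPM in C, so that the ratio was 4.45 in root and 8.91 in shoot. An ERF gene of subfamily B-3 (VIT_10s0003g00580) gave 2.12 in root and 6.71 in shoot. The heat shock factor HSFC1 (VIT_11s0016g03940) gave 3.26 and 6.77. Among Myb-type genes the ratios were 3.32 in root and 3.77 in shoot for VIT_07s0197g00060, 2.64 and 4.49 for VIT_08s0007g06310, 3.5 and 2.19 for the divaricata gene VIT_09s0002g03540 and 2.05 and 7.54 for the divaricata gene VIT_06s0080g00790. The zinc finger factor DOF3.5 (VIT_18s0001g15730) was low throughout and gave 2.09 in root and 2.93 in shoot. The remaining factors were bZIP53, bZIP6 and a GT2-like trihelix gene, all within the range of the group.

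**Figure D2:**
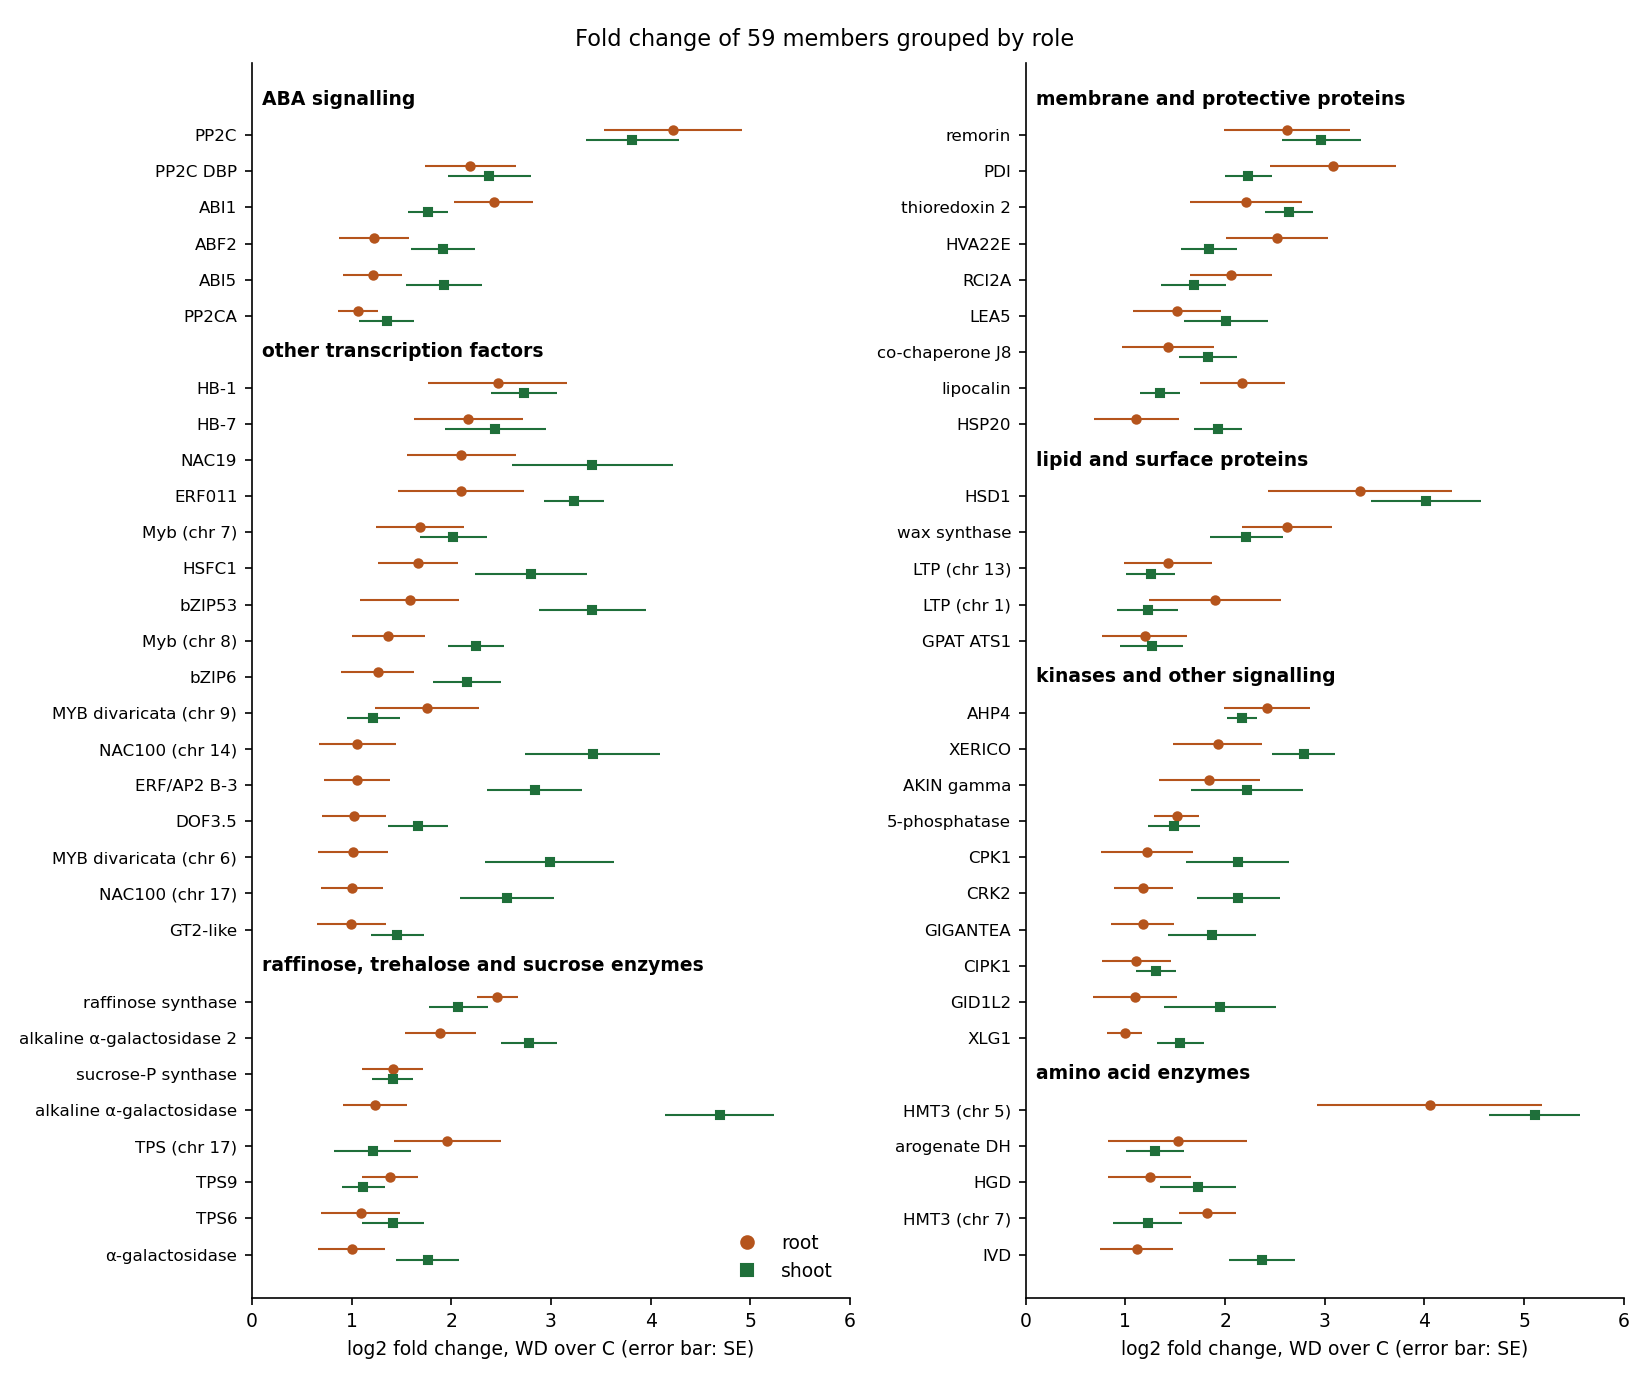
Log2 fold change of WD over C (horizontal axis) for 59 members grouped by role, in root (circles) and shoot (squares), with the SE of each estimate as error bars. The PP2C in the top row was at 4.23 in root and 3.82 in shoot, and the widest gap within a gene was that of the alkaline α-galactosidase, 1.23 in root and 4.69 in shoot.

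Sugar metabolism gave 8 members, with a median ratio of 2.71 in root and 2.83 in shoot. Raffinose synthase adds a galactose unit to sucrose to make raffinose, and alkaline α-galactosidases take that galactose off again, so both directions of the pathway are represented. Raffinose synthase (VIT_14s0066g00810; chromosome 14, bases 27284623 to 27287761) was at 159.9, 217 and 219 CPM in WD root and 34.9, 42.2 and 28.3 CPM in C root. In shoot it was at 59.2, 110.4 and 125 CPM in WD and 26.9, 26.5 and 20.6 CPM in C. The lowest WD root library was 3.79 times the highest C root library, for ratios of 5.65 in root (log2 fold change 2.46, SE 0.20) and 3.98 in shoot (2.07, SE 0.30).

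The alkaline α-galactosidase on chromosome 8 (VIT_08s0007g08310; chromosome 8, bases 21658791 to 21665614) had the highest WD shoot level of the members. Its values were 2161, 5539 and 6205 CPM in WD shoot and 142, 289.6 and 145 CPM in C shoot. In root they were 629, 1061 and 1577 CPM in WD and 483, 463 and 397 CPM in C. WD shoot 1 was well below WD shoot 2 and 3 and yet several times any C shoot library. The mean of WD was 24.1 times C in shoot (log2 fold change 4.69, SE 0.55) and 2.43 times in root (1.23, SE 0.33), and the difference of 3.49 (SE 0.60) between the organs was the largest among the members. Alkaline α-galactosidase 2 on chromosome 11 (VIT_11s0016g05770) had 608, 595 and 1116 CPM in WD root and 263, 211 and 134 CPM in C root. It had 394, 709.8 and 717 CPM in WD shoot and 86.5, 86.2 and 109 CPM in C shoot, with ratios of 3.81 and 6.46. Another gene, annotated as an α-galactosidase precursor (VIT_13s0067g02640), gave 2.05 in root and 3.16 in shoot.

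A pair of genes annotated as trehalose 6-phosphate synthase, the enzyme of trehalose signalling, were members. The one on chromosome 17 (VIT_17s0000g08010) had 189.8, 72.4 and 166 CPM in WD root and 55.7, 36.9 and 16 CPM in C root, and gave 3.94 in root and 2.19 in shoot. The gene on chromosome 1 with the symbol TPS9 (VIT_01s0026g00280) gave 2.67 and 2.04. A gene annotated as trehalose-phosphatase with the symbol TPS6 (VIT_01s0011g05960) gave 2.21 and 2.49. Sucrose-phosphate synthase (VIT_11s0118g00200), which makes the precursor of sucrose, was high in all groups, at 371, 757 and 832 CPM in WD root and 223, 272 and 219 CPM in C root. In shoot it was at 277, 406 and 412 CPM in WD and 135, 163 and 141 CPM in C, for ratios of 2.75 and 2.49.

 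Among 9 membrane and protective proteins the median ratio was 4.67 in root and 3.57 in shoot. Late embryogenesis abundant protein 5 (VIT_07s0005g00660), of a family that shields other proteins as cells dry, was the most abundant of them per transcript length, with a mean of 198 RPKM over the C libraries (RPKM, read counts scaled by exon length and library size, as deposited). Its CPM was 171, 284 and 597 in WD root and 147, 113 and 94.4 in C root. In shoot it was 423, 555 and 688 in WD and 153, 215 and 72.0 in C. WD root 1 lay only 1.16 times over the highest C root library, and the ratios were 2.97 in root and 3.78 in shoot. HVA22E (VIT_17s0000g01080), of a family first known as ABA-induced in barley, had 11.9, 33.1 and 50.1 CPM in WD root and 4.08, 4.97 and 6.92 CPM in C root. It had 16.5, 22.9 and 32.9 CPM in WD shoot and 7.75, 6.88 and 6.70 CPM in C shoot, 5.96 times in root and 3.39 times in shoot. Remorin (VIT_08s0007g08280; chromosome 8, bases 21623830 to 21625713), a plasma membrane protein, went from 27.1, 48.7 and 13.2 CPM in C root to 72.3, 189.9 and 305 CPM in WD root. In shoot it went from 40.3, 81.7 and 29.5 to 291, 392 and 418 CPM, for ratios of 6.37 and 7.27. Protein disulfide isomerase (VIT_18s0001g01030), which forms disulfide bonds in newly made proteins, gave 8.81 in root and 4.41 in shoot, and thioredoxin 2 (VIT_08s0007g07620) gave 4.79 and 5.83. RCI2A (VIT_13s0019g03650), a small membrane protein of cold and salt responses in Arabidopsis, gave 4.29 in root and 3.00 in shoot, and a lipocalin (VIT_11s0206g00120) gave 4.67 and 2.39. The co-chaperone J8 (VIT_09s0018g00620) gave 2.73 and 3.32, and an HSP20 chaperone (VIT_07s0151g00830) gave 2.22 and 3.57.

 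Of lipid and surface proteins there were 5, with a median ratio of 3.84 in root and 2.28 in shoot. Wax synthase (VIT_15s0046g00490), which joins a fatty alcohol to an acyl chain, had 104, 47.1 and 76.7 CPM in WD root and 14.5, 6.42 and 15.5 CPM in C root. It had 204, 299 and 268 CPM in WD shoot and 85.4, 47.0 and 40.7 CPM in C shoot, 6.25 times in root and 4.45 times in shoot. A gene annotated after corticosteroid 11-beta-dehydrogenase (VIT_17s0000g01050), a steroid enzyme described in mammals, read 9.74, 42.4 and 131 CPM in WD root and 5.67, 8.67 and 2.71 CPM in C root. In shoot it read 31.7, 63.4 and 103 CPM in WD and 2.54, 7.2 and 3.39 CPM in C, 10.7 and 15.1 times. A pair of lipid transfer protein genes were members, VIT_13s0156g00090 with ratios of 2.78 in root and 2.2 in shoot and VIT_01s0011g06590 with 3.84 and 2.17. The glycerol-3-phosphate acyltransferase ATS1 (VIT_02s0012g02160), of chloroplast lipid synthesis, gave 2.36 and 2.28.

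Enzymes of amino acids gave 5 members, with a median ratio of 2.89 in root and 3.08 in shoot. Homocysteine S-methyltransferase 3 on chromosome 5 (VIT_05s0020g03860; chromosome 5, bases 5513805 to 5518184), which makes methionine, had the largest shoot ratio of the members. Its values were 82.6, 88.1 and 152 CPM in WD shoot and 1.56, 3.78 and 4.77 CPM in C shoot. In root they were 3.27, 12.7 and 52.5 CPM in WD and 1.38, 2.25 and 0.252 CPM in C. The root values spread widely, WD root 3 being many times WD root 1, and C root 3 held the 4 reads that were the lowest count of any member. The ratios were 31.9 in shoot (log2 fold change 5.10, SE 0.46) and 17.7 in root (4.05, SE 1.13). Amino acid breakdown was represented by isovaleryl-CoA dehydrogenase (VIT_06s0004g03140), for leucine, with ratios of 2.22 in root and 4.83 in shoot, and by homogentisate 1,2-dioxygenase (VIT_19s0014g01800), for tyrosine, with 2.44 and 3.08. A second homocysteine S-methyltransferase 3 on chromosome 7 (VIT_07s0151g00520) gave 3.63 and 2.18, and an arogenate dehydrogenase (VIT_13s0067g02120), of tyrosine synthesis, gave 2.89 and 2.33.

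The 10 members grouped here as kinases and other signalling genes had a median ratio of 2.33 in root and 3.85 in shoot. The group is not a full count, since an S-locus protein kinase, IDA and SAUR29 were left out of it. Among the 10 was the RING finger gene with the symbol XERICO (VIT_12s0057g01330), whose Arabidopsis counterpart raises ABA content. It was at 34.6, 88.9 and 123 CPM in WD root and 24.4, 23.5 and 14.9 CPM in C root. Shoot levels were 277, 505 and 491 CPM in WD and 46.3, 89.5 and 62.5 CPM in C, for ratios of 3.93 and 6.42. Outside these 10, another RING finger gene (VIT_14s0219g00040) gave 3.84 in root and 10.9 in shoot. AHP4 (VIT_11s0016g03170), a histidine phosphotransfer protein of the cytokinin family, had 10.7, 27.0 and 36.8 CPM in WD root and 4.08, 5.29 and 4.03 CPM in C root. It had 126, 155 and 163 CPM in WD shoot and 34.2, 35.9 and 35.3 CPM in C shoot, 5.56 times in root and 4.21 times in shoot, with shoot replicates so close that the SE of the log2 fold change was 0.15. GIGANTEA (VIT_18s0157g00020), which acts in the circadian clock and flowering, was at 282, 536 and 590.3 CPM in WD root and 151, 252 and 202 CPM in C root. The shoot libraries held 167, 312 and 419 CPM in WD and 44.7, 128 and 93.9 CPM in C. Its WD root 1 was 1.12 times C root 2, and its ratios were 2.33 and 3.38. Of kinases, the gamma subunit AKIN (VIT_17s0000g01460) of the energy-sensing SnRK1 complex gave 3.68 in root and 4.31 in shoot, CIPK1 (VIT_05s0020g00830), which works with calcium sensors, gave 2.18 and 2.33, calcium dependent protein kinase 1 (VIT_08s0032g01220) gave 2.33 and 4.03, and the receptor-like kinase CRK2 (VIT_17s0000g08770) gave 2.30 and 4.12. A gibberellin receptor gene GID1L2 (VIT_07s0104g00930) gave 2.2 and 3.68, an inositol phosphate 5-phosphatase (VIT_18s0157g00210) 2.94 and 2.66 and the extra-large G-protein XLG1 (VIT_03s0063g01780) 2.04 and 2.77. Transport members were a mitochondrial 2-oxoglutarate/malate carrier (VIT_18s0001g07320; 3.91 in root, 2.33 in shoot), the ABC transporter B member 16 (VIT_16s0098g00570; 2.07 and 2.04) and the mechanosensitive channel MSL2 (VIT_18s0001g07500; 2.03 and 3.5).

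The members with no named function included some of the largest ratios. VIT_14s0171g00360 was at 4.10, 15.5 and 41.3 CPM in WD root and 1.17, 2.25 and 0.944 CPM in C root. Its levels in shoot were 145, 187 and 132 CPM in WD and 4.35, 18.4 and 7.75 CPM in C, so that it was 14.0 times C in root and 15.2 times in shoot. Of the 12 members with the largest value of their smaller log2 fold change, 4 were of unknown function, this one included. For the others the ratios in root and shoot were 7.71 and 13.6 for VIT_00s0265g00090, 5.58 and 6.79 for VIT_02s0025g04180 and 5.17 and 5.95 for VIT_11s0016g02980. Per length, the most abundant members over the C libraries were VIT_08s0056g01610 with a mean of 303 RPKM, late embryogenesis abundant protein 5, VIT_08s0056g01600 with 119 RPKM, VIT_08s0007g07320 with 97.6 RPKM and the basic endochitinase 1 (VIT_03s0038g03400) with 70.6 RPKM, 3 of the 5 having no named function. The mean of VIT_08s0056g01610 joined 585 RPKM in C shoot with 21.3 RPKM in C root, where it was at only 2.14 CPM. By mean RPKM the median member stood at percentile 54.3 of all gene models in C root and 76.7 in WD root, and at 67.0 in C shoot and 90.5 in WD shoot.

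Over the 151 members the ratio of WD to C was 2.00 to 19.7 in root with a median of 2.89, and 40 members had 4 or more and 6 had 8 or more. In shoot it was 2.01 to 31.9 with a median of 3.46, and 57 had 4 or more and 15 had 8 or more. The median log2 fold change was 1.51 in root (0.97 to 4.23) and 1.87 in shoot (1.10 to 5.10), beside 0.01 and -0.02 over all genes tested. In edgeR's quasi-likelihood test over all genes, 145 members had an adjusted p under 0.05 in shoot, where the test called 13.1% of all genes higher in WD, and 0 did in root, where it called 0.0% of genes. DESeq2 called 151 in shoot (15.4% of genes) and 81 in root (1.33%). At an unadjusted p under 0.05, 144 members passed in root with edgeR (5.8% of genes) and 150 in shoot (20.3%). The rule used these contrasts, so nothing is read from the counts. Without C shoot 3 the count of 145 was 39, and all 151 passed the filters on low counts. Groups without overlap, which the rule asked for, were found for 7.98% of tested genes in root and 19.5% in shoot. The lowest WD library was 1.5 times the highest C library or more for 43 members in root and 110 in shoot. Just inside the limit of 2 lay an auxin-independent growth promoter gene (VIT_08s0007g01650) with ratios of 2.00 in root and 2.07 in shoot, a tyrosine specific protein phosphatase (VIT_12s0059g01400) with 2.30 and 2.01, and SRO2 (VIT_01s0127g00680) with 2.02 and 2.91. Just outside lay ERD4 (VIT_10s0003g04180), named for its early response to dehydration, with 2.44 and 1.995, an unknown protein (VIT_05s0020g00390) with 1.99 and 5.53, and Erwinia induced protein 2 (VIT_17s0000g02020) with 1.99 and 2.82.

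The libraries of a group did not share the difference evenly. As multiples of the mean of C in the organ, the median member was at 1.91, 2.29 and 4.14 in WD root 1, 2 and 3 and at 1.09, 1.15 and 0.698 in C root 1, 2 and 3. The shoot multiples were 2.64, 3.25 and 4.46 in WD 1, 2 and 3 and 0.896, 1.14 and 0.903 in C. WD root 3 was the highest WD root library for 126 of 151 members and WD root 1 the lowest for 103. WD shoot 3 was the highest WD shoot library for 114 members and WD shoot 1 the lowest for 109, and 96 members were highest in the libraries numbered 3 in both organs. Among genes of the same C level with a higher WD mean, 65.2% were highest in WD root 3 and 61.3% in WD shoot 3. Being highest in the library numbered 3 of an organ thus held for most genes with higher WD means. Of all genes of that C level, 48.0% were lowest in WD root 1 and 41.3% in WD shoot 1. Of 5364 genes of that level with higher WD means in both organs, 48.6% were highest in both libraries numbered 3. The median coefficient of variation was 49.6% in WD root, 31.3% in C root, 33.5% in WD shoot and 28.9% in C shoot. The count of members moved with these libraries. Leaving out WD root 3 left 107 genes, 99 of them among the 151, leaving out WD root 1 gave 343, 140 of them among the 151, and leaving out both WD libraries numbered 3, an alternative chosen after the values were seen, gave 98, 88 of them among the 151.

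**Figure D3:**
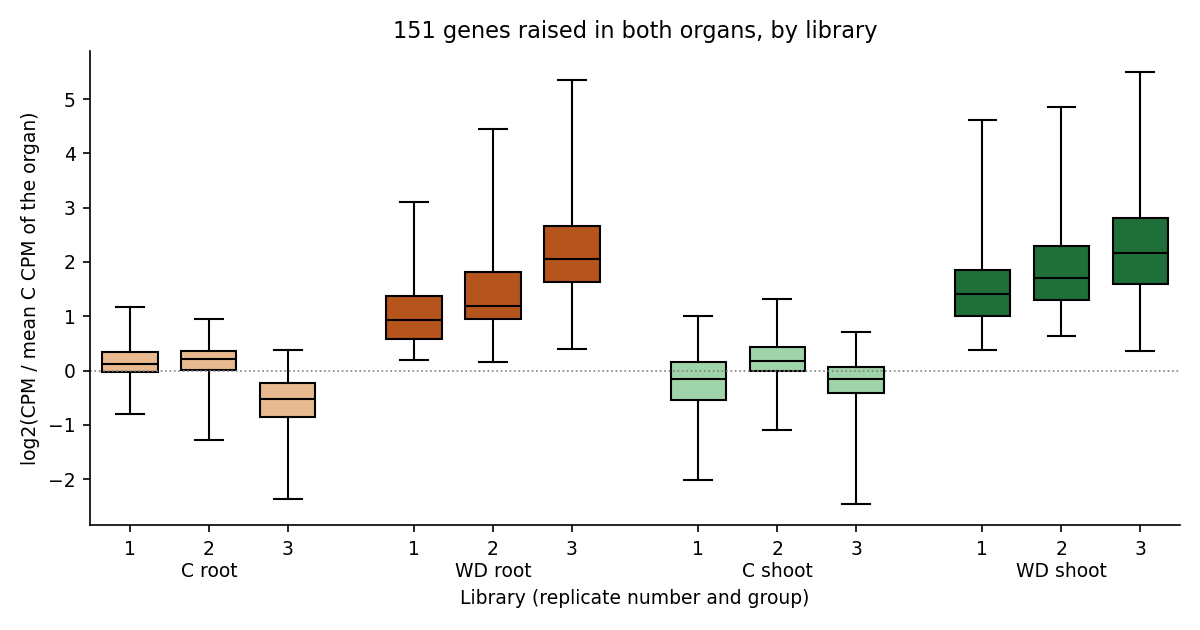
Level of the 151 members in each library as log2 of CPM over the mean C CPM of the organ (vertical axis), for the replicates of C root, WD root, C shoot and WD shoot. Boxes span the quartiles around the median and whiskers the full range, and the medians of the WD libraries correspond to 1.91, 2.29 and 4.14 times C in root and to 2.64, 3.25 and 4.46 times C in shoot.

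Spearman's rho of the log2 fold changes in root and shoot was 0.22 over the 151 members. It is a description of genes that share the same 12 libraries. The rule cut the changes of both organs from below, so this value cannot show how related the organs' changes are. In the fit over all 12 libraries, the log2 fold change was larger in shoot for 106 members and larger in root for 45, with a median difference of 0.37, and 122 members lay within 1 log2 unit of equal change. The median SE of such a difference was 0.59, and edgeR called 1 member in this fit, where it called 0.607% of genes; the rule used the same contrasts and nothing is read from it. The widest differences toward shoot were those of the alkaline α-galactosidase described above, the basic endochitinase 1 and VIT_03s0017g01460, a gene with no match, at 3.49 (SE 0.60), 3.34 (SE 1.0) and 2.50 (SE 0.75). The endochitinase (VIT_03s0038g03400), an enzyme that cleaves chitin, had 309, 322 and 808 CPM in WD root and 236, 154 and 258 CPM in C root. It had 105, 238 and 552 CPM in WD shoot and 6.77, 32.9 and 5.90 CPM in C shoot, where C shoot 2 was above the other C libraries. So the shoot went from a low level to one near that of root. The widest toward root were VIT_08s0056g01600 at -1.36 (SE 0.99), SPX2 (VIT_11s0016g05330), of a family that senses phosphate status, at -1.0 (SE 0.67) and VIT_07s0005g02450 at -0.92 (SE 0.77). VIT_08s0056g01600 went from 8.79, 14.5 and 3.34 CPM in C root to 16.8, 54.6 and 185 CPM in WD root, while in shoot it was already at 171, 208 and 202 CPM in C and at 506, 481 and 919 CPM in WD.

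**Figure D4:**
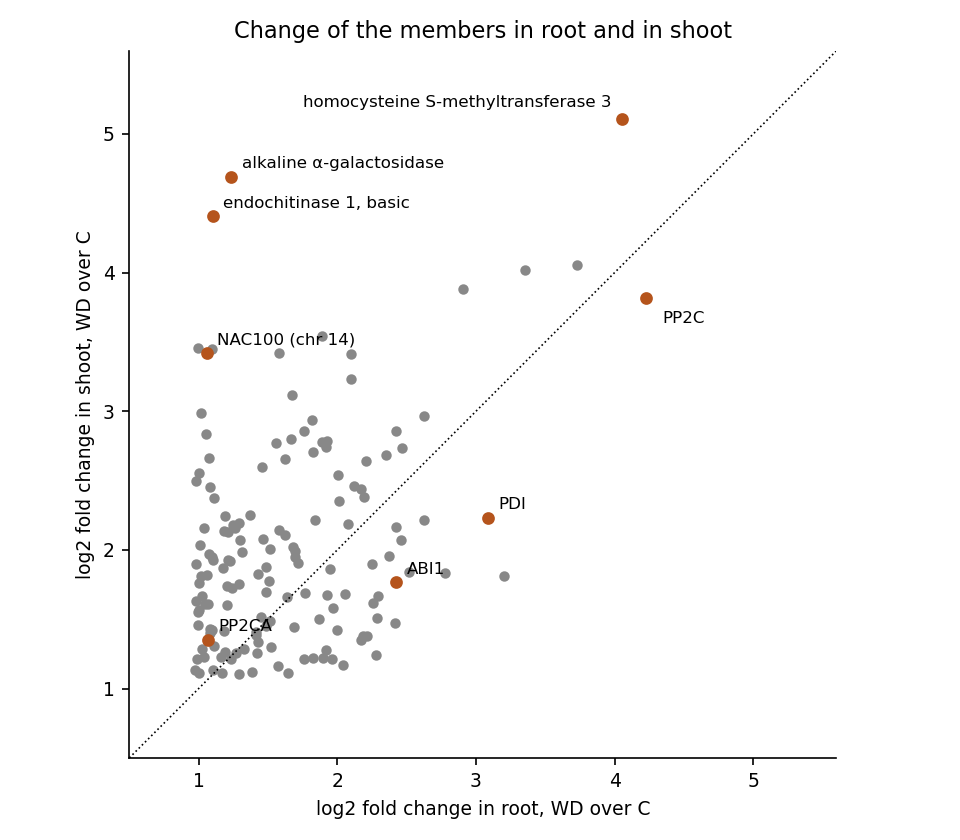
Log2 fold change of WD over C in root (horizontal axis) and in shoot (vertical axis) for the 151 members (points), with the line of equal change dotted. The rule keeps the lower left empty. The alkaline α-galactosidase (1.23 in root, 4.69 in shoot) and the endochitinase (1.10 and 4.41) are far to the shoot side of the line.

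The rule asked for a level in both organs and set no order between them, so root was compared with shoot by edgeR's quasi-likelihood test, once in the C and once in the WD libraries. These p-values set the difference between organs against the spread between libraries of pooled vines. Root and shoot libraries were treated as independent, although the labels do not say whether they share vines. In C vines 66 members (43.7%) were higher in shoot and 23 (15.2%) higher in root, and 62 were not called. The test called 29.3% of all genes tested higher in shoot and 26.8% higher in root, and 27.1% and 23.7% of the genes with the same C level. The median log2 ratio of root to shoot was -0.77 over the members and -0.02 over those genes. In WD vines 76 members (50.3%) were higher in shoot and 6 (3.97%) higher in root, beside 26.1% and 25.8% of all genes tested and 24.1% and 23.3% of genes with the same C level. The median log2 ratio was -1.24 over the members and 0.03 over those genes. The log2 ratio of root to shoot in WD is that in C minus the difference of change, shoot less root. This second comparison is therefore not free of the contrasts that chose the members. The C values entered the rule too, as the level asked for and as the base of each WD ratio. The first comparison is thus not free of the rule either, and how far the choice moved the C shares was not tested. The 6 members higher in WD root were 3 to 9 when a library was left out (the fewest without WD shoot 2), 10 with DESeq2 and with upper quartile scaling and 11 with total counts, whereas those higher in WD shoot were 56 to 88, the fewest without WD root 2. In C vines the calls higher in shoot were 60 to 66 and those higher in root 16 to 28 when a library was left out.

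In both comparisons 70 members were called, 63 higher in shoot and 6 higher in root each time. The other was the alkaline α-galactosidase on chromosome 8, with a log2 ratio of root to shoot of 1.12 (SE 0.27, edgeR adjusted p = 0.0127) in C and -2.37 (SE 0.51, edgeR adjusted p = 0.00855) in WD. It kept both calls when any 1 library was left out. The share of all genes called in both comparisons was not counted, so nothing is read from the 70. Of the phosphatases, the log2 ratio of root to shoot in C was -2.89 (SE 0.23, edgeR adjusted p = 0.000169) for ABI1 and -1.36 (SE 0.23, edgeR adjusted p = 0.00312) for PP2CA. In WD it was -2.26 (edgeR adjusted p = 0.00305) for ABI1 and -1.66 (edgeR adjusted p = 0.00214) for PP2CA, and the shoot was the higher organ in both. The phosphatase DBP was at -2.56 (edgeR adjusted p = 0.00265) in C and -2.77 (edgeR adjusted p = 0.00306) in WD. Of the 6 genes grouped under ABA signalling 5 were called higher in shoot in C and in WD. Of genes with the same C level, 27.1% in C and 24.1% in WD were called so. The exception was ABI5, at 0.87 (edgeR adjusted p = 0.0802) in C and 0.13 (edgeR adjusted p = 0.757) in WD. The group was made after the values were seen, so nothing is read from this count. HVA22E, whose entry also names ABA signalling, was grouped elsewhere and not called in C (edgeR adjusted p = 0.125) or in WD (edgeR adjusted p = 0.866). Without C root 3 it was called higher in shoot in C (edgeR adjusted p = 0.0444). The WD call of ABF2, at -1.77 (edgeR adjusted p = 0.0134), was lost without WD root 2, and that of the PP2C on chromosome 16, at -1.82 (edgeR adjusted p = 0.0347), was lost without WD root 2, WD shoot 2 or WD shoot 3 and with total counts. The members with the largest shoot excess in C were a Bet v I allergen gene (VIT_01s0011g05190) at -5.98 (SE 0.22, edgeR adjusted p = 3.1e-05), the auxin-responsive SAUR29 (VIT_15s0048g02860) at -5.10 (SE 0.20, edgeR adjusted p = 3.1e-05) and a haloacid dehalogenase hydrolase (VIT_08s0007g05350) at -4.82 (SE 0.19, edgeR adjusted p = 3.38e-05). In WD they were at -5.97 (edgeR adjusted p = 6.39e-05), -4.54 (edgeR adjusted p = 0.000324) and -5.23 (edgeR adjusted p = 0.00031). SAUR29 was at 1.27, 1.36 and 1.32 CPM in C root and 2.30, 5.75 and 8.29 CPM in WD root, against 41.9, 37.3 and 44.8 CPM in C shoot and 103, 102 and 106 CPM in WD shoot. The largest root excess in C was that of strictosidine synthase (VIT_04s0210g00050), an enzyme known from alkaloid synthesis, at 3.76 (SE 0.37, edgeR adjusted p = 0.000328), and it was higher in root also in WD, at 2.52 (SE 0.49, edgeR adjusted p = 0.00575). The endochitinase was next at 3.75 (SE 0.70, edgeR adjusted p = 0.00423) and VIT_03s0017g01460 followed at 3.13 (SE 0.57, edgeR adjusted p = 0.00387), and in WD neither was called (0.42 (edgeR adjusted p = 0.597) and 0.64 (edgeR adjusted p = 0.234)).

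HB-1 was higher in shoot in C at -3.73 (SE 0.37, edgeR adjusted p = 0.000349) and in WD at -4.03 (SE 0.70, edgeR adjusted p = 0.00355), whereas HB-7 was not called in either, at 0.10 (edgeR adjusted p = 0.873) and -0.19 (edgeR adjusted p = 0.793); without C shoot 1 it was called in C. NAC100 on chromosome 14 was higher in root in C at 2.54 (SE 0.62, edgeR adjusted p = 0.0125) and the ERF gene of subfamily B-3 at 1.97 (SE 0.30, edgeR adjusted p = 0.00181), and in WD they were at 0.16 (edgeR adjusted p = 0.773) and 0.16 (edgeR adjusted p = 0.784), so that a root excess that passed the test in C did not pass it in WD. Among the 8 sugar genes 3 were called higher in root and 0 higher in shoot in C, beside 23.7% and 27.1% of genes with the same C level. The group is small and was made after the values were seen, so nothing is read from these counts. The alkaline α-galactosidase on chromosome 8 was the 1 called in WD, and TPS6 was called in WD as well without WD root 3. Raffinose synthase was at 0.37 (edgeR adjusted p = 0.179) in C and 0.75 (edgeR adjusted p = 0.0593) in WD, where it was called with DESeq2, upper quartile scaling and total counts. Remorin was at -0.88 (edgeR adjusted p = 0.196) in C and -1.26 (edgeR adjusted p = 0.0585) in WD, and was called in WD with DESeq2 or without WD root 3, while wax synthase was higher in shoot at -2.41 (edgeR adjusted p = 0.00549) and -2.02 (edgeR adjusted p = 0.00319). XERICO was higher in shoot at -1.77 (edgeR adjusted p = 0.00169) and -2.66 (edgeR adjusted p = 0.0039).

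**Figure D5:**
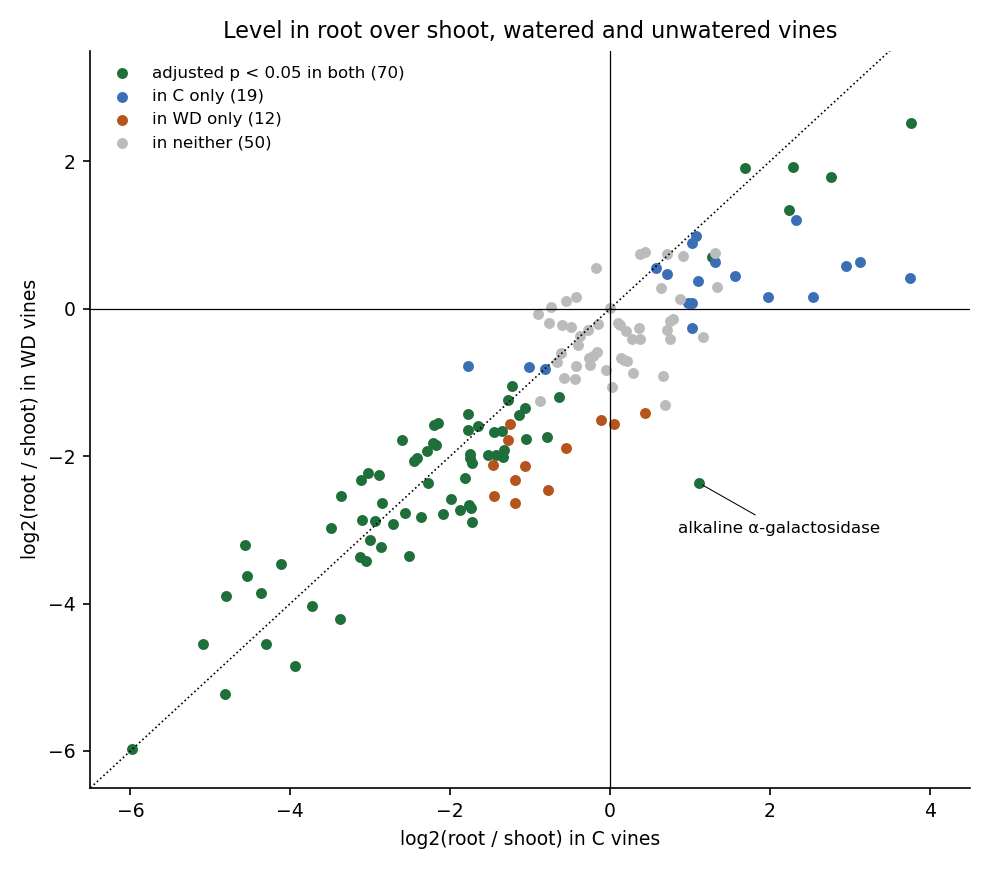
Log2 ratio of root to shoot in C vines (horizontal axis) and in WD vines (vertical axis) for the 151 members, coloured by the comparison in which edgeR's adjusted p was under 0.05, with the line of equal ratio dotted. In both comparisons 70 members were called, in C only 19, in WD only 12 and in neither 50, and the alkaline α-galactosidase is the called point with opposite signs. The matching shares over all genes were not counted.

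The members lay on all 19 chromosomes and on unplaced sequence. Of the 151, 26 (17.2%) had another member within 50 kb, and 5.52% of the 16313 other genes of the same C level had a member that near, as a description without a test, since neighbouring gene models can share reads and near copies can lie side by side. They formed 12 neighbourhoods, 10 of 2 members and 2 of 3. ABI1 and AHP4 lay beside each other on chromosome 11, within bases 2543892 to 2561412. HB-7 and SAUR29 lay within bases 16970707 to 16991236 of chromosome 15, HVA22E and the corticosteroid dehydrogenase-like gene within 746760 to 757963 of chromosome 17, and remorin and the alkaline α-galactosidase within 21623830 to 21665614 of chromosome 8. ABI1 and AHP4 were both called higher in shoot, whereas SAUR29 was higher in C shoot and HB-7 was not called, and the alkaline α-galactosidase was higher in C root while remorin was not called. The strictosidine synthase gene lay with a pair of AMP-dependent synthetase and ligase genes in 62348 bases of chromosome 4. A pair of glucosyltransferase genes lay in 8005 bases of chromosome 13. The 2 adjoining models VIT_08s0056g01600 and VIT_08s0056g01610 spanned 969 bases of chromosome 8. Their CPM in WD root was 16.8, 54.6 and 185 and 3.62, 9.13 and 33.4, and the 6 root libraries had the same order in both. Of the 151 members 12 adjoined another gene model without a gap, among them remorin and alkaline α-galactosidase 2, and the sources used here do not say whether reads were counted by strand, so reads of such neighbours may not be told apart.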

How the data were processed

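Root tips and shoot tips of WD and C vines gave 12 RNA-seq libraries, 3 for each organ and treatment. Per the labels and the study's methods, the authors trimmed single-end reads with Prinseq, aligned them to the V. vinifera PN40024 12X V1 genome with TopHat2 2.0.8 and Bowtie2 2.1.0 and deposited htseq-count tables of raw counts for each gene model, with the strand setting not given in the sources used here. The deposited RPKM values, from Cufflinks (2.2.2 in the submitters' processing notes), were used only to compare levels between genes and as an alternative for choosing members. Deposited tables of the authors' own fold changes and p-values were not used. Of the counted reads, 69.1% to 76.5% fell on genes, and lines that name no gene were left out. All columns of counts and RPKM matched a sample (0 left unmatched).

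CPM was a count over the total on genes in the library. Tests were fitted over all genes with edgeR 4.0.16 in R 4.3.3 (filterByExpr, TMM scaling, robust quasi-likelihood F test, Benjamini-Hochberg adjusted p under 0.05), within each organ, within each treatment and over all 12 libraries for the difference of change. The SE was the absolute log2 fold change over the square root of F. The scripts were tested on simulated data. Alternatives were DESeq2 1.42.0, other scalings, no filter, other limits of the rule, the replicate number as a block and leaving out each library.

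The members and the gene lists were chosen with earlier results of these data known. Named genes were the 12 members with the largest smaller log2 fold change of the organs, up to 4 of each list, those the study paired with a symbol, those nearest to the limit, the 3 with the largest difference each way between C root and C shoot, the 5 with the highest RPKM and the 3 with the largest difference of change each way. Other members, such as AHP4, ABI5, alkaline α-galactosidase 2, the α-galactosidase precursor, sucrose-phosphate synthase and the rest of those placed in role groups, were chosen after their values were seen, as were the role groups. Gene models were named from the study's lists of changed genes, of which the WD shoot list was read only in its leading part, so the gene lists were used to choose names and markers and not to count pathways. Promoter motifs were not analysed here.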

Additional observations from a re-analysis of the deposited data

How the results depend on the processing

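The number of members was 312 with a fold limit of 1.5, 49 with a limit of 3, 84 with a C level of 5 CPM or more, 340 where libraries could overlap and 98, an alternative chosen after seeing the data, without both WD libraries numbered 3. It was 107 to 343 when a library was left out, and 153, 143 and 123 from TMM-scaled CPM, DESeq2 size factors and deposited RPKM, with 138, 132 and 106 of the 151 among them. The median log2 fold change of the members was 1.17 to 1.67 in root and 1.73 to 1.99 in shoot when a library was left out, and the median difference between the organs 0.18 to 0.82. In WD root edgeR called 0 members in every setting, leaving out a library included, and DESeq2 called 81. In WD shoot 39 to 139 were called when a library was left out, the fewest without C shoot 3. Members called between organs were 79 to 92 in C, of which 16 to 28 were higher in root and 60 to 66 in shoot. In WD they were 62 to 94, of which 3 to 9 were higher in root and 56 to 88 in shoot, and 10, 10 and 11 were higher in root with DESeq2, upper quartile scaling and total counts. The causes were not tested. Of 69 named genes, 46 were called in C and 39 in WD, and 5 and 9 of these lost the call when a library was left out. Of genes with the same C level, 27.1% were called higher in shoot and 23.7% higher in root in C. In WD these shares were 24.1% and 23.3%. Some genes were named for their called difference in C, so nothing is read from the counts of named genes.

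The deviations of libraries 1, 2 and 3 from their group means correlated with those of the same number at -0.02, -0.13 and -0.46 between WD and C root, 0.15, -0.12 and 0.05 between WD and C shoot, 0.00, -0.01 and 0.20 between C root and C shoot and 0.27, 0.03 and 0.32 between WD root and WD shoot. No comparison had all its pairs over 0.1, so the numbers were not taken as pairs. With the replicate number as a block, 10 members were higher in WD root than WD shoot and 85 higher in shoot, 92 were called between organs in C, remorin was called higher in shoot in C (edgeR adjusted p = 0.00705) and in WD (0.0179), and raffinose synthase (0.0206), TPS6 (0.0157) and VIT_03s0017g01460 (0.0169) were also called in WD, and the median log2 fold change was 1.46 in root and 1.87 in shoot. No promoter could be matched to these gene models, so the search for motifs was not run. With 3 libraries a group, an exact permutation test of 1 value cannot go below p = 0.1.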
